A study of Mus musculus with 16 samples.

Results

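The STAT genes encode latent transcription factors, and 6 of them (Stat2, Stat3, Stat4, Stat5a, Stat5b and Stat6) were followed here among 29806 gene rows measured in mouse bone marrow progenitors. They were chosen by name, with earlier results of these data known, and all 6 passed the filter on low counts. RNA came from HSC (haematopoietic stem cells) and from MPP3 Fcgr(-), multipotent progenitors with a myeloid bias taken without the Fcgr-bearing fraction that leads towards granulocyte-monocyte progenitors. The mice were either wild type, the controls of the Jak2 line, or Jak2V617F, called mutant here, and each of the 4 groups held 4 libraries numbered by batch. No other allele, treatment, strain or age is given in the labels, nor the number of mutant copies or the driver of the allele, and nothing says that libraries came from separate mice, so each p measures the spread between libraries. The question the design poses is whether the active kinase changes these cells at the RNA level.

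Cytokine receptors that lack a kinase of their own borrow JAK1, JAK2, JAK3 or TYK2. The kinase phosphorylates STAT proteins, which pair through their SH2 domains, move to the nucleus and bind palindromic DNA elements. JAK2 serves the receptors for erythropoietin, IL-3 and GM-CSF, among others, and the V617F change in its pseudokinase domain keeps the kinase active without ligand. STAT proteins are switched by phosphorylation, which RNA does not report, so the values below describe the supply of transcripts and not STAT activity. Stat5a and Stat5b are neighbouring paralogues downstream of JAK2, and their loss is known to impair HSC maintenance in mice.

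Stat5a and Stat5b are shown side by side because reads from one can be assigned to the other. Both genes lie on mouse chromosome 11 (GRCm38, GENCODE M21), Stat5b at chr11:100780731-100850724 on the minus strand and Stat5a at chr11:100859351-100885169 on the plus strand. Their coding sequences have 2394 and 2361 bases and match at 2081 of 2294 aligned positions, which is 90.7% identity. The longest identical run has 324 bases, from coding base 571 to base 894. Their annotated transcripts share 836 stretches of 31 bases, which is 11.5% of those of Stat5a and 15.1% of those of Stat5b. The first 90 coding bases of each follow, 5′ to 3′, with the 16 positions that differ in capitals. Positions that differ are spread over this stretch, whereas the identical run holds none.
Stat5a coding bases 1 to 90: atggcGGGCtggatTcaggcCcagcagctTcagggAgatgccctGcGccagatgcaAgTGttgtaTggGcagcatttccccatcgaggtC
Stat5b coding bases 1 to 90: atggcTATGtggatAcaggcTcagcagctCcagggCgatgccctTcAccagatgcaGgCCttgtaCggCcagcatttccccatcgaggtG

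The other members share little sequence at that scale. Stat3 and Stat5a share 42 stretches of 31 bases, 0.438% of those of Stat3, and their 3′ ends overlap by 72 bases on opposite strands. Stat3 lies beside the Stat5 pair at chr11:100885098-100939540 on the minus strand. Stat2 (chr10:128270559-128292849) and Stat6 (chr10:127642986-127660957) are on the plus strand of chromosome 10, and Stat6 overlaps Nab2 on the other strand by 40 bases. Stat4 (chr1:51987148-52107189, plus strand) shares 29929 bases of its span with the noncoding Gm28177 on the same strand. No source used here gives a strand protocol, so reads in the overlaps with genes on the opposite strand cannot be told apart.

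The 250 bases before the RefSeq start (GRCm38.p6) are printed for Stat2, the interferon member, and for Stat3 and Stat6, the members whose HSC levels did not overlap between genotypes. Letters were searched on both strands for TTCNNNGAA, the core of the element that STAT pairs bind (GAS), and for TTCNNTTTC, a short form of the spacing in interferon-type (ISRE) elements. Of 32851 RefSeq windows of that length, 7.02% held the first and 7.13% the second. Of 9 such windows listed for the 6 genes, 0 held the first and 2 the second, those of Stat2 and of 1 of 2 Stat4 starts. Capitals mark the match, which starts 221 bases before the Stat2 start.
Stat2 chr10:128270248-128270497, plus strand: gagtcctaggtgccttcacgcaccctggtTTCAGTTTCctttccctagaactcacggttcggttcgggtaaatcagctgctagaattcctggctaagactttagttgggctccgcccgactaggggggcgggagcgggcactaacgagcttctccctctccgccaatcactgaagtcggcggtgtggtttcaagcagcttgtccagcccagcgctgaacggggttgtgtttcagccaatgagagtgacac
Stat3 chr11:100939541-100939790, minus strand: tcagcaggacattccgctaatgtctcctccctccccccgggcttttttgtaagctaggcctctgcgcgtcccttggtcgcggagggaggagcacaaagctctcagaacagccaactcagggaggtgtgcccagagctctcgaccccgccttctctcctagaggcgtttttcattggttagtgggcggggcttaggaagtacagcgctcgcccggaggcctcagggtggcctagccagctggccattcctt
Stat6 chr10:127642736-127642985, plus strand: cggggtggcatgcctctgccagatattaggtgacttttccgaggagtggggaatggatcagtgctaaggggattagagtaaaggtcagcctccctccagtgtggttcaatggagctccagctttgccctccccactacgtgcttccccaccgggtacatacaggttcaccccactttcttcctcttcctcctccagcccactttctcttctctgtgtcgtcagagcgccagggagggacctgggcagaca
The Stat3 and Stat6 windows hold neither set of letters. A match is a run of letters and not a measured binding site.

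The shallowest library held 33372210 estimated counts and the deepest 41520158. Levels are CPM (the count rate of a gene relative to the TMM-scaled library size), given as mean ± SD with n = 4 libraries, and log2 fold changes are given ± SE. A change was called when the adjusted p of edgeR's quasi-likelihood test, Benjamini-Hochberg adjusted over 14179 genes, was under 0.05. The sort markers followed the labels. Slamf1 had 39.8 ± 13.9 CPM in control HSC and 1.88 ± 0.76 in control MPP3, Cd48 had 2.50 ± 0.77 and 185 ± 24.6, and Mpo had 9.33 ± 6.29 and 2492 ± 856. Fcgr3 had 0.172 ± 0.202 CPM in control HSC and 4.997 ± 3.30 in control MPP3, where it ran from 2.34 to 9.29 CPM. In mutant HSC and mutant MPP3, Slamf1 had 37.6 ± 3.10 and 2.44 ± 1.03 CPM, Cd48 6.74 ± 1.71 and 276 ± 40.2, and Mpo 5.36 ± 7.69 and 2410 ± 579. Cd48 ran from 1.74 to 3.20 CPM in control HSC and from 4.91 to 8.67 in mutant HSC. Jak2 itself had 21.7 ± 5.89 CPM in control HSC and 25.9 ± 5.23 in mutant HSC, and gene counts do not read the V617F base. Of 9 marker sums, 4 were lower in mutant than in control HSC without overlap. The others overlapped. Among them the median rose from 836 to 1159 CPM for megakaryocyte, 924 to 1004 for dendritic cell and macrophage and 6.16 to 8.29 for mast cell and basophil markers. It fell from 34.9 to 8.06 CPM for neutrophil and 33.4 to 26.7 for T and NK markers. Over the 8 HSC markers that stand on none of the pathway lists used below, the sum was 1846 to 2102 CPM in control and 1282 to 1558 CPM in mutant HSC, with none at 0. The sum over 7 erythroid markers was 3733 to 4350 and 2917 to 3461 CPM, and that over 10 myeloid progenitor markers 370 to 448 and 208 to 365 CPM, with none at 0. That over 8 B-cell markers was 72.5 to 94.3 and 53.4 to 66.9 CPM, with 3 and 4 of them at 0. Of these 8, 7 stayed under 1 CPM in every library of control HSC and 7 in mutant HSC, so the sum rests almost wholly on 1 gene. In bulk RNA, fewer cells of a type and less RNA per cell cannot be told apart, and the part of these shifts in the results below was not tested.

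Per unit of length, Stat3 was the most abundant member in all 4 groups. In control HSC the authors' TPM (a transcript share corrected for effective length) was 114 ± 9.28 for Stat3, 78.6 ± 8.73 for Stat5a, 64.1 ± 7.45 for Stat6, 49.8 ± 10.6 for Stat4, 30.2 ± 3.11 for Stat5b and 13.8 ± 4.37 for Stat2. Stat3 did not overlap with Stat5a in its range over libraries, while Stat5a overlapped with Stat6 and Stat6 with Stat4. Stat3 made up 32.5% ± 0.23 of the TPM of the 6 genes in control HSC and 33.8% ± 0.75 in mutant MPP3. The same order held in mutant HSC and control MPP3. In mutant MPP3, Stat6 (58.7 ± 3.59 TPM) came before Stat5a (56.5 ± 18.7 TPM), with overlapping ranges and Stat6 above Stat5a in 2 of 4 libraries. With the paralogues added together, Stat5a plus Stat5b reached 109 ± 11.2 TPM in control HSC and 86.5 ± 27.2 TPM in mutant HSC, level with the 86.5 ± 6.50 TPM of Stat3 there.

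**Figure D1:**
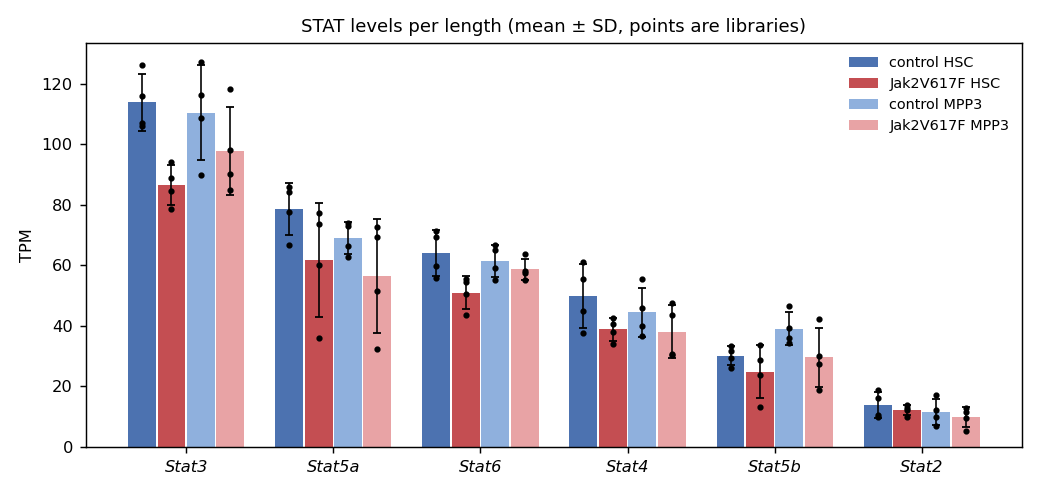
Deposited TPM (linear axis from 0) of the 6 STAT genes in the 4 groups; bars are means, whiskers SD over 4 libraries and points single libraries. Stat3 is highest in every group (114 TPM in control HSC) and Stat2 lowest (13.8 TPM), and the points of Stat5a spread widely in the mutant groups.

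In HSC, 1 of 6 STAT genes changed between genotypes, Stat6, which was lower in the mutant, beside 7.3% of all 14179 genes called in either direction and 2.74% called lower. All 6 had log2 fold changes below 0, from -0.35 to -0.18 with a median of -0.33, where all genes had a median of -0.06 and 55.7% lay below 0. In MPP3, 0 of 6 were called by edgeR, beside 0.0635% of all genes called. At an unadjusted edgeR p under 0.05 stood 1960 of 14179 genes and 0 of the 6 members. Their fold changes ran from -0.35 to -0.00 with a median of -0.17, against -0.02 over all genes, of which 52.8% lay below 0. Groups did not overlap for 2 of 6 members in HSC, Stat3 and Stat6, both lower, where 7.6% of all genes were lower without overlap.

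**Figure D2:**
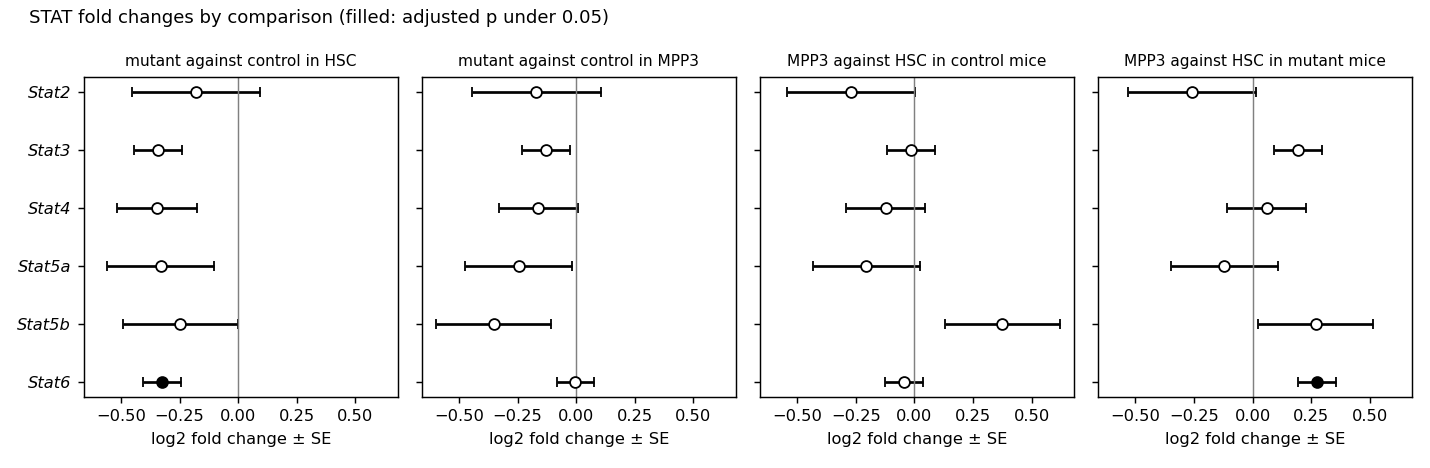
Log2 fold changes ± SE of the 6 STAT genes in 4 comparisons, from the edgeR fit over 16 libraries; filled points have an adjusted p under 0.05. Only Stat6 is filled, in mutant against control HSC (-0.32) and in MPP3 against HSC of mutant mice (0.27).

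Stat6 carries the IL-4 and IL-13 signal. In control HSC its 4 libraries, in order of replicate number, had 187, 188, 217 and 218 CPM. In mutant HSC they had 162, 156, 158 and 173 CPM. Every mutant HSC library lay below every control HSC library, and the mutant reached 72.6% to 86.4% of the control of its batch. Stat6 fell by 0.32 ± 0.08 (log2; edgeR adjusted p = 0.0206, and 0.00300 to 0.127 over all alternatives). The call was lost without control HSC replicate 3 (0.0669) or 4 (0.0707) and without mutant HSC replicate 1 (0.0529), 2 (0.0899) or 3 (0.0537), and also without batch 4 in all groups (0.127), where the fold change stayed at -0.33. Control MPP3 had 215, 186, 187 and 198 CPM and mutant MPP3 194, 196, 205 and 190 CPM. These groups overlapped and differed by -0.00 ± 0.08 (log2; edgeR adjusted p = 1.0). The difference between the mutant effects in MPP3 and HSC was 0.32 ± 0.11 (log2) and was not called (edgeR adjusted p = 0.508, unadjusted p = 0.0121). Over all genes 0.0423% were called for that difference, and none of the 6 members was.

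Stat3 answers the IL-6 family and G-CSF. Control HSC had 384, 382, 382 and 412 CPM, and mutant HSC 262, 328, 350 and 293 CPM. The mutant libraries all lay below the controls, by most in batches 1 (68.1% of control) and 4 (71.2%). At -0.34 ± 0.10 (log2) Stat3 missed the threshold (edgeR adjusted p = 0.0547). With the replicate number as a block Stat3 was called (edgeR adjusted p = 0.0419), as it was by DESeq2 (adjusted p = 0.0193), by limma-voom (adjusted p = 0.0400), with effective-length offsets (edgeR adjusted p = 0.0296) and without mutant HSC replicate 3 (edgeR adjusted p = 0.0333). Without mutant HSC replicates 1 and 4 together its value was -0.20 (edgeR adjusted p = 0.446). Control MPP3 had 397, 329, 396 and 421 CPM and mutant MPP3 335, 358, 399 and 318 CPM. Those groups overlapped and moved both ways among batches, at -0.13 ± 0.10 on that scale (edgeR adjusted p = 0.636).

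**Figure D3:**
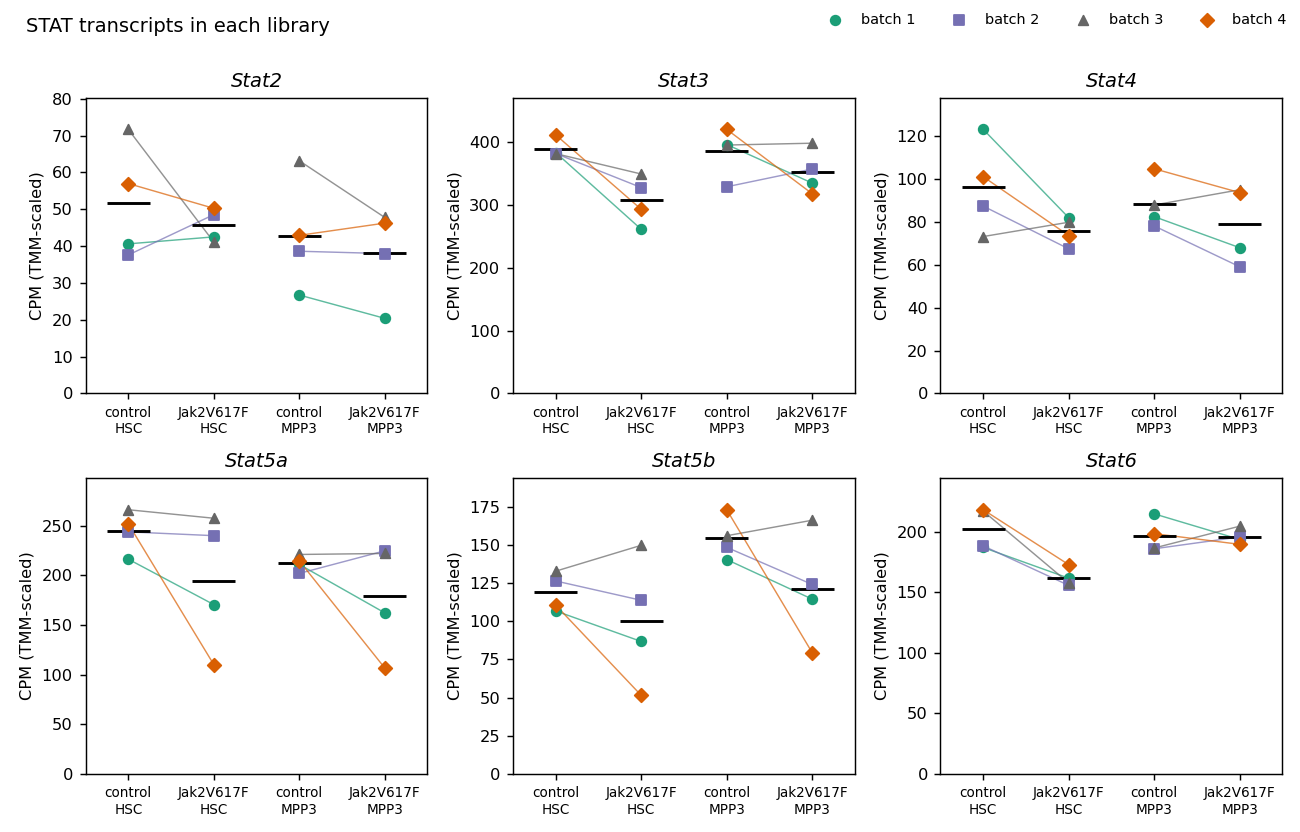
CPM (linear axes from 0) of each STAT gene in every library, with black bars for group means, symbols for the labelled batches and lines joining control and mutant of a batch and cell type. Stat6 separates the HSC genotypes (187 to 218 against 156 to 173 CPM), and the batch 4 lines of Stat5a and Stat5b drop in both cell types.

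Stat5a and Stat5b, the main STAT proteins below JAK2 in blood cells, were low together in the mutant libraries of batch 4 in both cell types. Stat5a had 216, 244, 266 and 252 CPM in control HSC and 171, 240, 258 and 110 CPM in mutant HSC. In MPP3 it had 211, 202, 221 and 215 CPM in control and 162, 225, 222 and 107 CPM in mutant libraries. The lowest value in each cell type is the mutant library of batch 4, and the second lowest that of batch 1, while batches 2 and 3 lay close to their controls. Stat5b had 107, 126, 133 and 111 CPM in control HSC and 86.8, 114, 150 and 51.4 CPM in mutant HSC. It had 141, 149, 156 and 173 CPM in control MPP3 and 115, 124, 166 and 79.4 CPM in mutant MPP3. Stat5b thus showed the same low library in each mutant group.

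As a share of the control of its batch, mutant Stat5a was at 43.7% in HSC and 49.7% in MPP3 in batch 4, and Stat5b at 46.5% and 45.8%. In batch 1 these shares were 78.8%, 76.9%, 81.3% and 81.5%. In batches 2 and 3 they ran from 83.6% to 113%. Adding both paralogues, which removes any swap of reads between them, gave 79.6%, 95.5%, 102% and 44.5% in HSC and 78.7%, 99.6%, 103% and 48.0% in MPP3 over batches 1 to 4. The drop in batch 4 is therefore present in the sum. Stat3, whose 3′ end touches that of Stat5a, stood at 71.2% and 75.6% in batch 4, and Stat6 at 79.2% and 95.6%.

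Over the groups, neither paralogue was called. Stat5a stood at -0.33 ± 0.23 in HSC and -0.25 ± 0.23 in MPP3 (log2; edgeR adjusted p = 0.452 and 0.712). Stat5b stood at -0.25 ± 0.25 and -0.35 ± 0.25 (edgeR adjusted p = 0.641 and 0.571). These means rest mostly on batch 4, while batch 1 was also below its controls. Without batch 4 in all groups, Stat5a had -0.13 in HSC and -0.06 in MPP3, and Stat5b had -0.07 and -0.14. Their sum stood at -0.30 ± 0.23 in HSC and -0.29 in MPP3 (edgeR adjusted p = 0.504 and 0.640), and at -0.11 and -0.09 without batch 4. Without mutant HSC replicates 1 and 4 together the HSC values lay above 0, at 0.02 for Stat5a, 0.15 for Stat5b and 0.07 for the sum.

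The batch 4 pattern was set beside other genes after it was seen, as a description. Of 7166 genes averaging 20 CPM or more, 38 (0.530%) were at or under a log2 ratio of -1 in batch 4 in both cell types, Stat5a and Stat5b among them. The same count was 65 in batch 1, 36 in batch 2 and 15 in batch 3, with no STAT member in any of these. Of 24 other genes at that level within 500 kb of the Stat5 pair, 0 were so low in both cell types in batch 4. Their median log2 ratio in batch 4 was 0.27 in HSC and 0.09 in MPP3. The lowest neighbour in HSC, Jup at -1.20, had -0.20 in MPP3. Each group holds 1 library of batch 4, so a mutant effect particular to that batch and a property of those libraries cannot be told apart, and the cause was not tested.

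**Figure D4:**
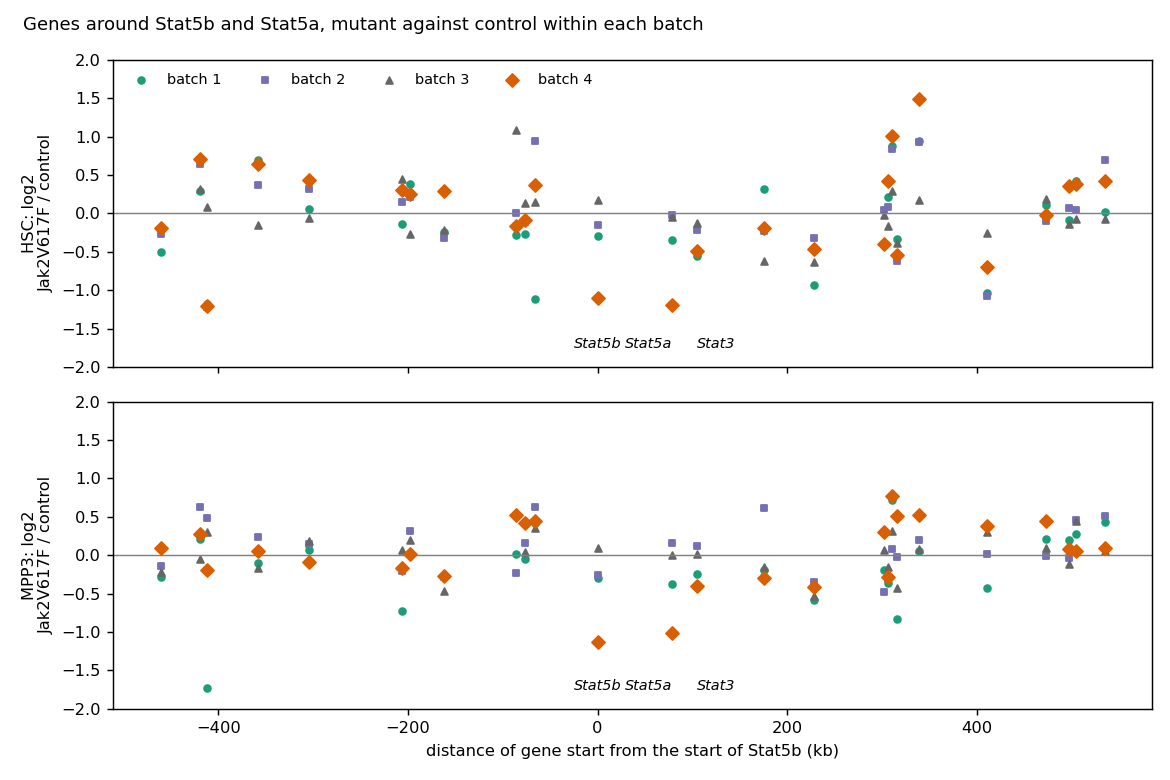
Log2 ratio of mutant to control within each batch for genes of at least 20 CPM around Stat5b and Stat5a, against the distance in kb of the lowest base of each gene from that of Stat5b, for HSC (top) and MPP3 (bottom). In batch 4 (diamonds) Stat5b and Stat5a sit near -1.1 to -1.2 and -1.0 to -1.1, while the neighbours have medians of 0.27 and 0.09.

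Stat2, the interferon member that works with IRF9, was the least abundant. Control HSC had 40.6, 37.6, 71.7 and 57.0 CPM and mutant HSC 42.5, 48.5, 41.1 and 50.3 CPM. Control MPP3 had 26.7, 38.6, 63.2 and 42.9 CPM and mutant MPP3 20.4, 38.0, 47.8 and 46.2 CPM. The genotypes overlapped in both cell types, and in MPP3 batch 1 was lowest in both genotypes. Log2 fold changes were -0.18 ± 0.27 in HSC and -0.17 in MPP3 (edgeR adjusted p = 0.787 and 0.862). Both turned positive without replicate 3 of the control, at 0.02 and 0.08.

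Stat4 is best known for carrying the IL-12 signal in T and NK cells, and it was the fourth of the 6 in each group by TPM. Control HSC had 123, 87.4, 73.2 and 101 CPM and mutant HSC 82.0, 67.5, 79.9 and 73.7 CPM. Control MPP3 had 82.5, 78.1, 87.9 and 105 CPM and mutant MPP3 68.0, 59.1, 95.05 and 93.7 CPM. The genotypes overlapped, with 3 of 4 batches lower in the mutant in each cell type. Stat4 stood at -0.35 ± 0.17 in HSC and -0.16 ± 0.17 in MPP3 (log2; edgeR adjusted p = 0.249 and 0.752). The T-cell gene Cd3e was at 0 in 3 groups and at most 0.332 CPM in mutant MPP3, and the 12 T and NK markers summed to 29.0 to 41.7 CPM in control HSC, 20.9 to 38.1 in mutant HSC, 51.2 to 84.4 in control MPP3 and 40.5 to 53.3 in mutant MPP3. Of these 12 markers, 10 stayed under 1 CPM in every library of control HSC and of mutant HSC, 7 in control MPP3 and 5 in mutant MPP3, and the part of such cells in the Stat4 level was not tested.

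Between the cell types of control mice, 0 of 6 STAT genes were called by edgeR, beside 13.6% of all genes called. At an unadjusted edgeR p under 0.05 stood 3751 of 14179 genes and 0 of the 6 members. Stat5b had 107 to 133 CPM in HSC and 141 to 173 CPM in MPP3, higher in MPP3 in 4 of 4 batches and without overlap, as 19.5% of all genes were in either direction. Stat5b stood at 0.38 ± 0.25 (log2; edgeR adjusted p = 0.375), with an SE that draws on all 4 groups. In the fit of those 2 groups alone it was called, at 0.37 ± 0.11 (edgeR adjusted p = 0.0426). Stat5a went the other way in 4 of 4 batches, with -0.21 (edgeR adjusted p = 0.646), and the sum of the paralogues was at 0.01. Stat3 had -0.02, Stat6 -0.05, Stat4 -0.12 and Stat2 -0.27. In mutant mice Stat6 was higher in MPP3 (162, 156, 158 and 173 CPM in HSC against 194, 196, 205 and 190), at 0.27 ± 0.08 (edgeR adjusted p = 0.0424), beside 8.36% of all genes called and 3.69% called higher. This comparison uses the same mutant HSC libraries as the genotype comparison. The call was kept in 2 of 16 fits that left out 1 library, those without control HSC replicate 3 or 4, and over all alternatives the edgeR, DESeq2 or limma adjusted p ran from 0.0168 to 0.147. Stat3 had 0.19 ± 0.10 (edgeR adjusted p = 0.318) and was higher in MPP3 in 4 of 4 batches.

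Upstream of the STAT genes stand kinases and receptors. Of 35 tested JAK kinases and STAT-coupled receptors, 6 fell in mutant HSC and 0 rose. Over all genes 7.3% were called in either direction and 2.74% called lower. The list median was -0.30, and 2 to 6 were called when 1 library was left out. Il4ra, Csf2ra, Il6st, Jak1 and Jak3 were among the 6 that fell. Il4ra, the receptor chain upstream of Stat6, went from 105 ± 15.4 to 70.8 ± 8.35 CPM (-0.57 ± 0.13, edgeR adjusted p = 0.0122, and 0.0523 without mutant HSC replicate 2). Csf2ra, a chain of the GM-CSF receptor, had -0.77 ± 0.21 (edgeR adjusted p = 0.0345) and Il6st, the gp130 chain upstream of Stat3, -0.80 ± 0.22 (edgeR adjusted p = 0.0363). Csf2ra kept its call in 9 and Il6st in 8 of 16 fits without 1 library, each losing it without control HSC replicate 1, 2 or 3, mutant HSC replicate 1, 2 or 4 or mutant MPP3 replicate 2, and Il6st also without mutant HSC replicate 3 (edgeR adjusted p up to 0.116 and 0.108). In mutant MPP3, 1 gene was called over all the lists, and 0 to 3 were when 1 library was left out.

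Among 21 tested brakes on the pathway, 2 fell in mutant HSC and 0 rose, beside 7.3% of all genes called and 2.74% called lower. The list median was -0.14. The count stayed at 2 in every fit without 1 library, and was 1 without batch 4 and 0 without mutant HSC replicates 1 and 4. Cish, a feedback inhibitor that STAT5 induces, had 164, 186, 149 and 70.1 CPM in control HSC and 42.0, 48.0, 78.9 and 34.5 CPM in mutant HSC. Control replicate 4 lay below mutant replicate 3, so the groups overlapped, and every mutant library was below the control of its batch. Cish fell by 1.48 ± 0.29 (log2; edgeR adjusted p = 0.00481, and 0.115 without mutant HSC replicates 1 and 4). In MPP3 Cish had 34.9, 36.3, 23.6 and 24.7 CPM in control and 12.6, 14.1, 13.8 and 8.66 CPM in mutant libraries, which did not overlap, as 3.48% of all genes did lower in the mutant, and were not called. Ptpn1, a phosphatase that acts on JAK2, fell from 146 ± 17.1 to 101 ± 17.2 CPM in HSC (-0.53 ± 0.12, edgeR adjusted p = 0.0125, but 0.0597 without batch 4 and 0.185 without mutant HSC replicates 1 and 4). Of 20 tested partners and modifiers, Nmi, which binds STAT proteins, rose (0.66 ± 0.14, edgeR adjusted p = 0.0107, but 0.0893 without batch 4 and 0.164 without mutant HSC replicates 1 and 4). The coactivator gene Ncoa1 fell by 0.76 ± 0.18 (edgeR adjusted p = 0.0157), a call lost without control HSC replicate 2 or 4 or mutant HSC replicate 1 or 4 (edgeR adjusted p up to 0.0607), and the list had a median of 0.03 and 1 to 6 calls without 1 library.

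Of 25 tested STAT5 and STAT3 targets, 3 fell and 1 rose in mutant HSC (3 to 5 called without 1 library), beside 7.3% of all genes called, with a list median of -0.28. The falls were Cish and Il4ra, both also on lists above, and Pim1, a survival kinase gene, from 408 ± 105 to 222 ± 59.6 CPM (-0.88 ± 0.24, edgeR adjusted p = 0.0341). Pim1 lost its call without control HSC replicate 1 or 4 or mutant HSC replicate 2, 3 or 4 (edgeR adjusted p up to 0.118). Birc5, a mitosis and survival gene that is also high in dividing cells, rose from 41.5 ± 1.08 to 85.9 ± 20.9 CPM (1.05 ± 0.16, edgeR adjusted p = 0.000898). Bcl2l1 and Socs2, which STAT5 also induces, were not called and had higher means in mutant HSC. Bcl2l1 had 200 ± 18.9 CPM in control and 257 ± 22.3 in mutant HSC, and Socs2 33.1 ± 6.13 and 40.6 ± 11.7. The list's median log2 ratio of mutant to control HSC was -0.50, -0.47, -0.30 and -0.07 in batches 1 to 4. In MPP3 the medians were -0.17, 0.05, -0.00 and -0.26. Over the same batches 18, 16, 17 and 16 of the 25 were lower in mutant HSC, and 18, 12, 13 and 16 in mutant MPP3. Each ratio rests on 1 library per genotype, and a link to the Stat5a and Stat5b levels was not tested. In MPP3, 0 of 25 were called by edgeR, with a list median of -0.18.

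Of 25 tested STAT2 and IRF9 targets, 0 were called in mutant HSC or mutant MPP3, beside 7.3% and 0.0635% of all genes, with medians of -0.01 and 0.02 (at most 1 and 2 called without 1 library). Of 15 tested STAT4 and STAT6 targets, 3 fell and 0 rose in mutant HSC (1 to 3 called without 1 library), beside 2.74% of all genes called lower, with a median of -0.40. They were Il4ra, Gata3, a transcription factor gene that STAT6 induces in T cells, from 132 ± 7.90 to 76.1 ± 20.1 CPM (-0.80 ± 0.19, edgeR adjusted p = 0.0148), and the protease gene Furin (-0.80 ± 0.21, edgeR adjusted p = 0.0267). Gata3 lost its call without mutant HSC replicate 1 or 4 (edgeR adjusted p up to 0.0586), and Furin without those or control HSC replicate 2 or 4 (up to 0.0970). Some genes stand on more than 1 list, and 14 different list genes of 132 tested were called in mutant HSC and 1 in mutant MPP3, beside the same 7.3% and 0.0635%. Csf2ra, Il6st, Ncoa1, Pim1, Gata3 and Furin also lost their HSC calls without batch 4 (edgeR adjusted p = 0.139, 0.0855, 0.179, 0.175, 0.1501 and 0.223). Without batch 4 the HSC count was 4, while calls over all genes went from 1035 to 266.

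Over all lists, 39 genes were called between the cell types of control mice and 23 between those of mutant mice. In control mice 12 of 35 kinases and receptors were higher and 8 lower in MPP3 (12 to 22 called without 1 library), beside 13.6% of all genes. Csf2rb, the shared chain for IL-3 and GM-CSF, went from 46.2 ± 15.2 CPM in HSC to 133 ± 36.6 in MPP3 (1.53 ± 0.23, edgeR adjusted p = 0.000194). Il10rb rose (1.01 ± 0.19, edgeR adjusted p = 0.00154) and Il27ra fell (-0.96 ± 0.13, edgeR adjusted p = 6.15e-05). Both STAT5-induced inhibitor genes named here were lower in MPP3. Socs2 went from 33.1 ± 6.13 to 3.18 ± 1.64 CPM (-3.38 ± 0.45, edgeR adjusted p = 6.76e-05) and Cish from 142 ± 50.6 to 29.9 ± 6.65 CPM (-2.25 ± 0.30, edgeR adjusted p = 6.31e-05). The cyclin genes Ccnd1 (-1.15 ± 0.15, edgeR adjusted p = 7.55e-05) and Ccnd2 (-0.81 ± 0.12, edgeR adjusted p = 0.000234) fell as well, among 5 of 25 STAT5 and STAT3 targets lower and 2 higher.

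Of 25 STAT2 and IRF9 targets, 5 were lower and 0 higher in control MPP3, beside 13.6% of all genes called, with a median of -0.35 and 5 to 6 called without 1 library. Ifih1, a sensor of viral RNA, went from 73.5 ± 11.6 to 39.7 ± 10.9 CPM (-0.89 ± 0.18, edgeR adjusted p = 0.00316), and Ifit1 (-1.08 ± 0.27, edgeR adjusted p = 0.0140), Ifit2 (-0.85 ± 0.18, edgeR adjusted p = 0.00484) and Isg20 (-0.61 ± 0.15, edgeR adjusted p = 0.0110) fell too. Of 15 STAT4 and STAT6 targets 2 were higher and 2 lower, led by Gadd45g, a growth arrest gene, from 40.8 ± 9.11 to 6.04 ± 2.53 CPM (-2.76 ± 0.28, edgeR adjusted p = 3.36e-06). In mutant mice 7 kinases and receptors were higher and 3 lower in MPP3, beside 8.36% of all genes. Csf2rb (1.45 ± 0.22, edgeR adjusted p = 0.000405), Csf3r, the G-CSF receptor upstream of Stat3 (1.68 ± 0.29, edgeR adjusted p = 0.00110), and Il4ra (0.67 ± 0.13, edgeR adjusted p = 0.00262) were among those higher. Bcl2l1, the BCL-XL gene that STAT5 induces, went from 257 ± 22.3 CPM in mutant HSC to 123 ± 17.9 in mutant MPP3 (-1.06 ± 0.14, edgeR adjusted p = 6.87e-05). None of the list genes was called for a difference of the mutant effect between cell types, in any list, at an edgeR adjusted p under 0.05.

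The genes whose pattern lay nearest to each member were taken as those with the smallest root mean square difference in gene-centred log2 CPM over the 16 libraries, among genes averaging 5 CPM or more. Predicted models, pseudogenes and other STAT genes were left out. Being the smallest of many, these differences lie under the median by construction, and they are smaller for genes that vary little. A shared regulation was not tested. Stat3 had the nearest, Aldoa, Gtf2i and Rassf1 at 0.0812, 0.0952 and 0.1003, where the median over genes was 0.362. For Stat6 these were Ssbp2, Slc39a11 and Scp2 at 0.103, 0.109 and 0.110 (median 0.341). The Stat4 set was Mpv17, Pdcl and Smim14 at 0.149, 0.175 and 0.176 (median 0.408). Stat5b had Ncoa4 at 0.199, then Cd300a at 0.269 and Msl1 at 0.274 (median 0.538). Stat5a had Tgfbrap1, Nufip2 and Gtf2ird1 at 0.213, 0.217 and 0.217 (median 0.502), and Stat2 had Gna11, Gbp2 and Mum1 at 0.219, 0.246 and 0.253 (median 0.534).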

How the data were processed

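RNA was measured in 16 libraries, and per the labels' protocols cDNA was made from sorted cells with a SMARTer Ultra Low kit and read as paired ends. Per the submitters' processing notes the genome was GRCm38 (mm10), and Salmon, HISAT2, FastQC and cutadapt 4.0 were used; no source used here gives their order, settings or transcript set. The authors deposited Salmon gene tables with estimated counts (expected counts per gene, not normalized), which were tested. The deposited TPM, which the authors' Salmon run corrected for effective length, served only to order genes. Of 31716 rows per table, 29806 are genes and 1910 single transcripts, which were left out of the main fit. Symbols and positions came from GENCODE M21 and promoter windows from RefSeq (GRCm38.p6).

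Counts were rounded, filtered with filterByExpr by group (14179 genes kept) and tested with edgeR 4.0.16 (glmQLFit, robust, TMM) in R 4.3.3, in 1 model of 4 groups over 16 libraries. Log2 CPM used a prior count of 2. The fit was tested on simulated data. Alternatives were the replicate block, RLE factors, DESeq2 1.42.0, limma-voom (limma 3.58.1), no filter, effective-length offsets, mitochondrial, ribosomal and haemoglobin genes left out, transcript rows added, groups alone, each library left out, mutant HSC replicates 1 and 4 left out, and, chosen after seeing the data, batch 4 left out. Per the labels a replicate number marks a batch, so numbers pair libraries; r of deviations from group means between same-numbered libraries ran from -0.03 to 0.16, and 17 of 24 matched best with their own number.

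The STAT members and 6 gene lists (144 genes, 132 tested) were chosen with earlier results of these data known. Named genes are the members, up to 4 called genes per list and comparison with the smallest adjusted p, Jak2, and the 3 nearest patterns per member; sort markers, Jak1, Jak3 and Jup were named outside that rule after their values were seen. Mgl2, Ccl17 and some further genes under that rule are left out of the text.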

Additional observations from a re-analysis of the deposited data

Results flagged for a closer look

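Stat3 in control HSC had its highest library, replicate 4 at 412 CPM, far from the other 3 libraries, which lay between 382 and 384 CPM. The gap was 0.945 of the group's range, above Dixon's critical value for 4 libraries. Among 24 groups of STAT values tested in this way it was the single one that passed, and chance flags about 1 in 20 groups.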

How the results depend on the processing

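Between genotypes in HSC, 1 STAT gene was called, and 2 were with the replicate block, DESeq2, limma-voom or effective-length offsets (Stat3 joining), while 0 were with no filter, the groups alone, mutant HSC replicates 1 and 4 left out together or batch 4 left out. Leaving out 1 library gave 0 to 1, and 0 to 1 for MPP3 against HSC in mutant mice, where RLE factors, limma-voom, no filter, effective-length offsets, the groups alone, mutant HSC replicates 1 and 4 left out and batch 4 left out each gave 0. The groups alone gave 1 for that comparison in control mice. Apart from those counts and the pathway counts below, the replicate block changed no STAT call. Batch 4 left out removes 4 of 16 libraries.

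Pathway genes called between genotypes in HSC numbered 14, but 5 without mutant HSC replicates 1 and 4, 4 without batch 4 and 6 to 16 when 1 library was left out. In MPP3 they numbered 1, but 4 with the replicate block, 9 by DESeq2, and 0 with no filter, the groups alone, mutant HSC replicates 1 and 4 left out or batch 4 left out, and 0 to 3 when 1 library was left out. Between cell types they numbered 39 in control mice, 19 without batch 4, and 23 in mutant mice, 36 by DESeq2 and 12 without batch 4. The difference of the mutant effects had 0, and 1 by DESeq2. By TPM, the sum of Stat5a and Stat5b came before Stat3 in mutant HSC (86.5125 and 86.5065). It came before Stat6 in mutant MPP3 (86.1 and 58.7). Stat5a alone came after Stat3 and after Stat6 there.

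Directions turned for log2 values that were called under none of the settings. With mutant HSC replicates 1 and 4 left out these were Stat5a (0.025), Stat5b (0.15) and their sum (0.066) between genotypes in HSC, Stat5b (-0.12), the sum (-0.34) and Jak2 (0.020) between cell types in mutant mice, and the difference for Stat5a (-0.27) and the sum (-0.36). Without batch 4 they were the difference for Stat2 (-0.089), Stat4 (-0.050), the sum (-0.0099) and Jak2 (0.030) between cell types in mutant mice, the sum in control mice (-0.027), and Stat6 (0.016) and Jak2 (0.19) between genotypes in MPP3. The difference for Stat2 was also -0.054 with the replicate block, -0.029 by limma-voom and -0.028 with no filter, and Jak2 in MPP3 was 0.017 with the block. With no filter Stat3 was 0.013 between cell types in control mice and the difference of the sum -0.027, and with effective-length offsets the sum was -0.0050 between cell types in control mice.

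Leaving out 1 library gave ranges that crossed 0. Between genotypes these were Stat2 in HSC (-0.30 to 0.018) and MPP3 (-0.33 to 0.081), Stat6 in MPP3 (-0.025 to 0.057) and Jak2 in MPP3 (-0.17 to 0.11). For the difference they were Stat2 (-0.19 to 0.25), Stat5a (-0.12 to 0.23), Stat5b (-0.34 to 0.11) and the sum (-0.20 to 0.16). Between cell types in control mice they were Stat3 (-0.060 to 0.045), Stat4 (-0.23 to 0.014) and the sum (-0.046 to 0.055), and in mutant mice Stat4 (-0.059 to 0.17), Stat5a (-0.34 to 0.051) and the sum (-0.20 to 0.21). The cause of these shifts was not tested. At 33372210 to 41520158 counts per library all 6 STAT genes passed the low-count filter, and the errors cover the spread between 4 libraries per group.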
